A study of Zea mays with 6 samples.

Results

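Values of 3 maize genes of chloroplast greening were taken from the 45578 entries of the expression files by their identifiers. These were *golden2* (*g2*, *Zm00001d039260*), its paralog *glk1* (*Zm00001d044785*), and *oil yellow1* (*oy1*, *Zm00001d023536*). All libraries came from the F1 hybrid B73×Mo17, from the aerial tissue of seedlings harvested 14 d after sowing and grown in days of 16 h light (28 °C) and 8 h dark (25 °C). Polysome profiling sequenced the RNA of the polysome fraction, m6A-seq sequenced fragments pulled down by an antibody against *N*6-methyladenosine, and input RNA-seq of polyadenylated RNA gave mRNA abundance, each in 2 biological replicates. No treatment or second genotype enters the comparisons, and the parental libraries were not analysed here.

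Greening of a leaf depends on nuclear genes that build the chloroplast and its pigments. *G2* and *GLK1* are transcription factors of the GARP group that turn on genes of chlorophyll synthesis and of the light-harvesting antenna, and in the maize leaf *g2* is known for its role in bundle sheath cells and *glk1* for its transcripts in mesophyll cells. *OY1* is subunit I of magnesium chelatase, the enzyme that inserts magnesium into protoporphyrin IX at the entry of the chlorophyll branch. Semi-dominant mutant alleles of *oy1* give yellow-green plants, and a modifier of that colour, which maps to regulatory variation at *oy1* itself, is known to differ between B73 and Mo17. The hybrid carries both alleles of each gene, and the files do not split them. Its reads were mapped to B73 alone, so a value need not be the full sum of both alleles.

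Levels are given as FPKM, a fragment count divided by transcript length and by the fragments of the library, so that genes can be compared within a library. *g2* lies on chromosome 3 from 750258 to 754984 on the plus strand of B73 AGPv4, with a span of 4727 bp. Its FPKM was 35.4 and 39.8 in the polysome libraries, against 26.5 and 25.6 in the mRNA libraries. Both polysome values were above both mRNA values, which was the case for 37.6% of the 19518 entries with a mean FPKM of at least 1 over the 4 libraries. *g2* was the most abundant of the 3 genes in every library, and stood above 87.2 to 88.8% of the entries with a *Zm* identifier and an FPKM of at least 1. In whole aerial tissue, fewer cells of a type and less RNA per cell cannot be told apart.

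*glk1* lies on chromosome 9 from 2407990 to 2410336 on the minus strand and spans 2347 bp. Its FPKM was 19.7 and 19.3 in the polysome libraries, against 12.8 and 13.1 in the mRNA libraries. Both polysome values were above both mRNA values, as in 37.6% of the entries tested. The replicates were closer than those of the other 2 genes in both layers. They had an absolute difference on the log2(FPKM + 0.1) scale of 0.03 in polysome RNA and 0.04 in mRNA. *oy1* lies on chromosome 10 from 9162610 to 9167073 on the minus strand and spans 4464 bp. Its FPKM was 12.3 and 13.9 in the polysome libraries, against 18.0 and 15.7 in the mRNA libraries. Here both polysome values were below both mRNA values, as in 45.5% of the entries tested. The mRNA replicates of *oy1* differed by 0.20 on the log2 scale, more than 70.2% of genes of like abundance and length, and those of *g2* by 0.05.

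**Figure D1:**
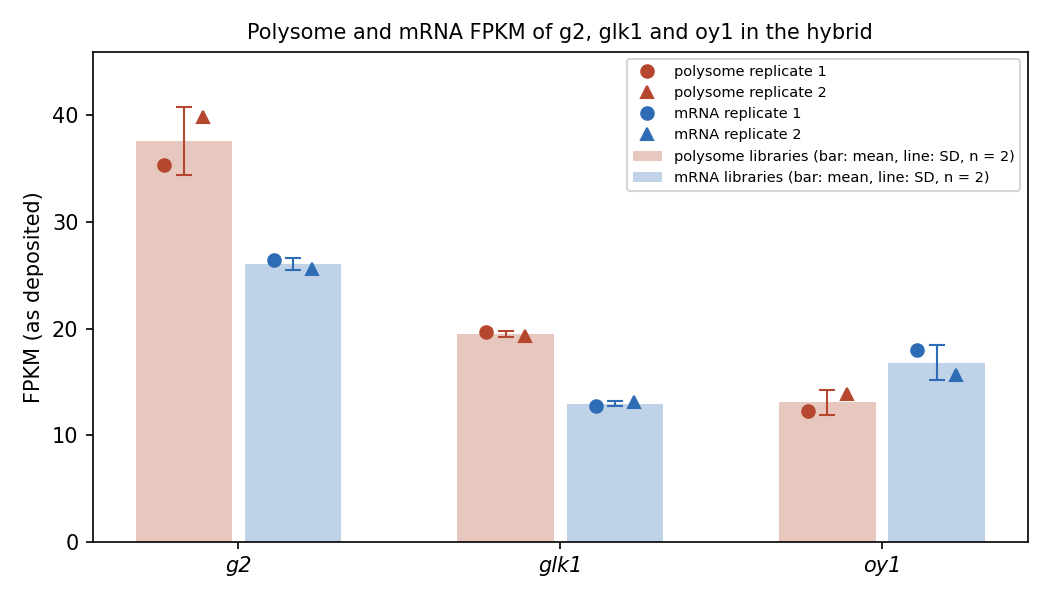
FPKM of *g2*, *glk1*, and *oy1* (vertical axis, as deposited) in polysome (red, left of each pair) and mRNA (blue) libraries of the hybrid, with points for the replicates, bars for the mean, and lines for the SD of 2 replicates. On this scale the polysome values of *g2* and *glk1* lay above the mRNA values and those of *oy1* below, and without ENSRNA entries the log2 differences of *g2* and *glk1* were −0.14 and −0.08.

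The order of the genes differed between the layers. In polysome RNA the means were 37.6 ± 3.16 FPKM for *g2*, 19.5 ± 0.299 for *glk1*, and 13.1 ± 1.14 for *oy1* (SD, n = 2 each). In mRNA they were 26.1 ± 0.592 FPKM for *g2*, 16.8 ± 1.62 for *oy1*, and 12.9 ± 0.244 for *glk1* (SD, n = 2 each). For a gene compared between the layers, 2 libraries against 2, an exact permutation test cannot give a two-sided *P* below 0.333. The genes within a layer share the same 2 libraries, and their order was not tested. No neighbours in either order overlapped between replicates. *glk1* thus stood above *oy1* in both polysome libraries, with ratios of 1.61 and 1.39, and below it in both mRNA libraries, with ratios of 0.711 and 0.837. The ratio of *g2* to *glk1*, the paralogs, was 1.79 and 2.06 in polysome RNA and 2.07 and 1.95 in mRNA.

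Translational efficiency, the polysome FPKM divided by the mRNA FPKM, was 1.44 for *g2*, with 1.34 and 1.55 in the replicates. For *glk1* it was 1.51, with 1.54 and 1.47. For *oy1* it was 0.779, with 0.684 and 0.887. Each replicate value, here and below, divides libraries of equal replicate number, which the labels do not tie to shared plants. Another pairing would give other replicate values, though on the same sides of 1, since polysome and mRNA values did not overlap. On the scale of the deposited FPKM the efficiency was therefore above 1 in both replicates of both transcription factors, a side that turned when ENSRNA entries were left out, and below 1 in both replicates of the chelatase subunit.

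The difference was tested with limma on the log2(FPKM + 0.1) scale over all 19518 entries, with Benjamini–Hochberg adjustment over all of them. A gene was called at an adjusted *P* below 0.01 and a fold change of at least 1.5. Of all entries 43.4% were called, 21.1% higher and 22.2% lower in polysome RNA, and 1 of the 3 genes was, so the count is no result about these genes. *glk1* was higher by 0.59 on the log2 scale (standard error 0.13, 95% interval 0.27 to 0.90, adjusted *P*=0.00895 from limma), a fold of 1.503 that lies just inside the limit. *g2* had a log2 difference of 0.53 (standard error 0.13, 95% interval 0.21 to 0.84, adjusted *P*=0.0135 from limma), just outside both limits. *oy1* had −0.36 (standard error 0.15, 95% interval −0.72 to 0.01, adjusted *P*=0.0788 from limma). The call of *glk1* is marginal: it was kept in 3 of 12 alternatives, and leaving out any of the 4 libraries ended it, with an adjusted *P* between 0.0218 (without polysome replicate 2) and 0.058 (without mRNA replicate 1). With the replicate number as a block the adjusted *P* of *glk1* was 0.0171.

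The signs of the estimates for *g2* and *glk1* depend on how the libraries are scaled. Non-coding entries with ENSRNA identifiers took 25.2 ± 0.912% of the summed FPKM in polysome libraries and 59.2 ± 0.467% in mRNA libraries (SD, n = 2 each). When they were left out and the rest was rescaled to an equal sum, the log2 difference was −0.14 for *g2* and −0.08 for *glk1*, neither of them called, and −1.02 for *oy1*, which was then called lower (adjusted *P*=0.00186 from limma). With each library centred on its median it was 0.75 for *g2*, then called (adjusted *P*=0.00313 from limma), 0.82 for *glk1*, and −0.13 for *oy1*. The split of calls over all entries moved from 4124 higher and 4340 lower to 5239 and 3350 with centring, and to 1817 and 8786 without ENSRNA entries. The median log2 difference of all entries was −0.14 as deposited, 0.09 after centring, and −0.79 without ENSRNA entries. A scaling multiplies a library by a constant and so moves all genes alike. As deposited, *g2* stood 0.66 and *glk1* 0.72 above that median on the log2 scale, and *oy1* had −0.22 relative to it.

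**Figure D2:**
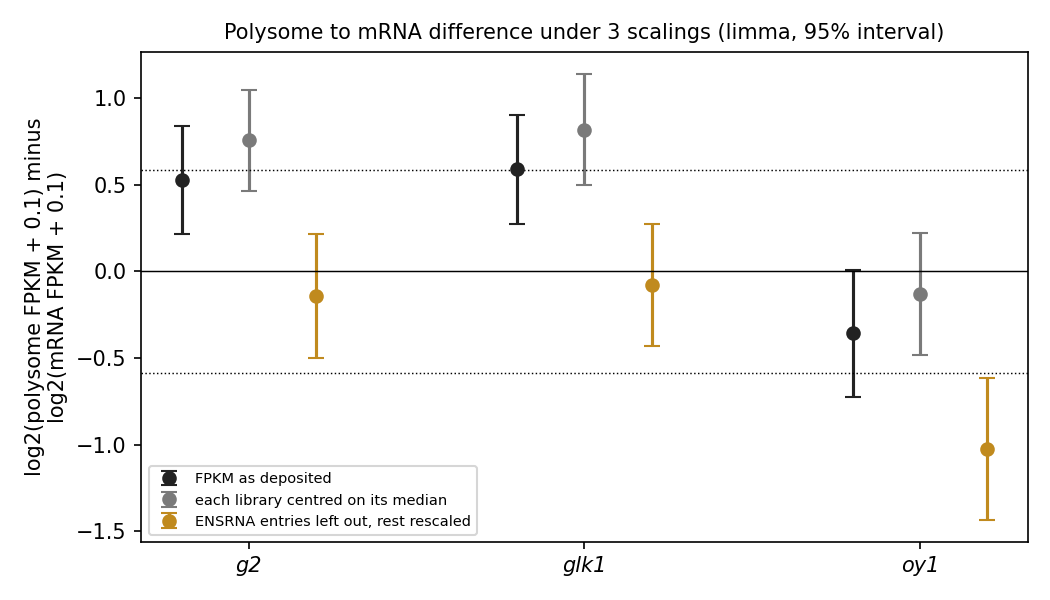
Log2 difference of polysome and mRNA FPKM (vertical axis) with its 95% interval from limma for the 3 genes under 3 scalings of the libraries, with dotted lines at a fold change of 1.5 in either direction. A scaling moves all genes alike, so the order of the genes is fixed and only their place relative to 0 and to the dotted lines differs.

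A difference between 2 genes within the same libraries is free of the scaling. Each library was therefore divided by the FPKM of 1 of the genes, an alternative chosen after seeing the data. The same limma fit was then run over all other entries, for the 3 pairs of genes. Every entry in such a fit carries the replicate variation of the divisor, which limma takes as variation common to the entries. The intervals may therefore be too narrow and the adjusted *P* too small, by an amount that was not tested. The log2 difference between polysome RNA and mRNA was larger for *g2* than for *oy1* by 0.88 (standard error 0.19, 95% interval 0.47 to 1.30, adjusted *P*=0.00199 from limma). It was larger for *glk1* than for *oy1* by 0.95 (standard error 0.20, 95% interval 0.50 to 1.39, adjusted *P*=0.00217 from limma), a fold of 1.93. Against the same divisor 30.5% of all entries were called higher, so a larger ratio than that of *oy1* is common among entries. For *g2* against *glk1* the difference was −0.06 with a 95% interval of −0.40 to 0.27 (adjusted *P*=0.697 from limma), which leaves room for a difference of either sign. Leaving out a library kept both differences from *oy1* above 0.80, but the adjusted *P* rose above the limit for *g2* without polysome replicate 1 (0.0129), polysome replicate 2 (0.012), or mRNA replicate 1 (0.0145), and for *glk1* without polysome replicate 1 (0.0293) or mRNA replicate 1 (0.0154).

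To place the 3 genes among others, entries with a *Zm* identifier were taken whose mean mRNA FPKM was within a factor of 2 and whose span was within a factor of 1.5 of the gene. *g2* had 1318 such genes, with a median efficiency of 0.895 and quartiles of 0.553 and 1.62, and its efficiency was above that of 70.9% of them. *glk1* had 1754, with a median of 1.11 and quartiles of 0.618 and 2.02, and was above 63.1%. *oy1* had 2097, with a median of 0.932 and quartiles of 0.573 and 1.64, and was above 41.0%. From the replicates alone these shares were 71.2 and 70.5% for *g2*, 64.9 and 60.3% for *glk1*, and 37.8 and 44.4% for *oy1*. All 3 genes thus lay within the middle of the range, with *g2* and *glk1* above its centre and *oy1* below it.

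**Figure D3:**
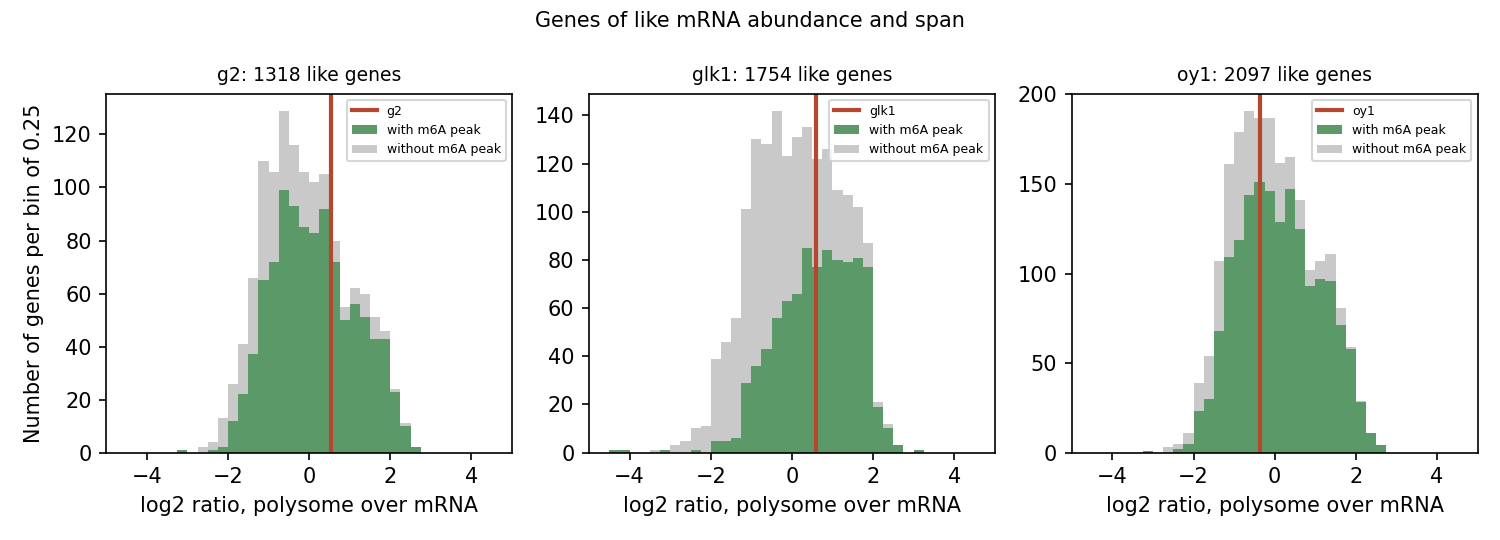
Number of genes (vertical axis) by log2 ratio of mean polysome to mean mRNA FPKM after adding 0.1 (horizontal axis, bins of 0.25) among genes of like mRNA abundance and span, split by the presence of a high-confidence m6A peak. The red line marks *g2*, *glk1*, or *oy1*, which lay above 70.9, 63.1, and 41.0% of their like genes.

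m6A is a methyl mark on adenosines inside mRNA, and peaks of m6A-seq signal over input mark where it is enriched. Only *g2* had a peak. In replicate 1 the peak ran from 754746 to 754964 on chromosome 3, with a fold enrichment of 6.67 and a −log10 *q* of 26.9. In replicate 2 it ran from 754742 to 754967, with a fold enrichment of 6.80 and a −log10 *q* of 31.2. The replicate 1 peak lay wholly within the replicate 2 peak, and the summits, at 754862 and 754867, were 5 bp apart. They lay 122 and 117 bp before the annotated end of *g2*, at 97.4 and 97.5% of its span, so that the mark was at the 3′ end of the gene in both replicates.

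The m6A level of *g2*, the mean fold enrichment of its peak, was 6.74 ± 0.0932 (SD, n = 2). The replicates differed by 0.03 on the log2 scale, and a smaller difference was found in only 4.22% of the high-confidence peaks. These are the 17022 peaks of replicate 1 that share 1 bp or more with a peak of replicate 2, and their median difference was 0.36. They are more than the peaks that the paper reports for the hybrid, so ranks here are not ranks in the published set. The level of *g2* was near the middle of these peaks, above 44.2% of them, against a median of 7.16. It was high for a gene of its abundance and length: among the 1014 like genes with a high-confidence peak (76.9% of the 1318) the median level was 4.25, with quartiles of 3.33 and 5.51, and *g2* was above 88.4%. A fold enrichment depends on the input coverage under the peak, which the files do not give.

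The peak of *g2* lies where the gene overlaps another. *Zm00001d039261*, on the minus strand from 754731 to 757177, ends inside *g2*, and the spans share 254 bp that hold the whole peak of both replicates. The peaks carry no strand. The FPKM of *Zm00001d039261* was 0.528 and 0.418 in the polysome libraries, against 0.202 and 0.0171 in the mRNA libraries, and the mean of *g2* was 79.4 times as high in polysome RNA and 237 times as high in mRNA. Such an overlap of 3′ ends on opposite strands was found in 2.64% of the 19397 *Zm* entries whose mean mRNA FPKM reached 1. How StringTie shared reads in the overlap between the genes was not tested.

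**Figure D4:**
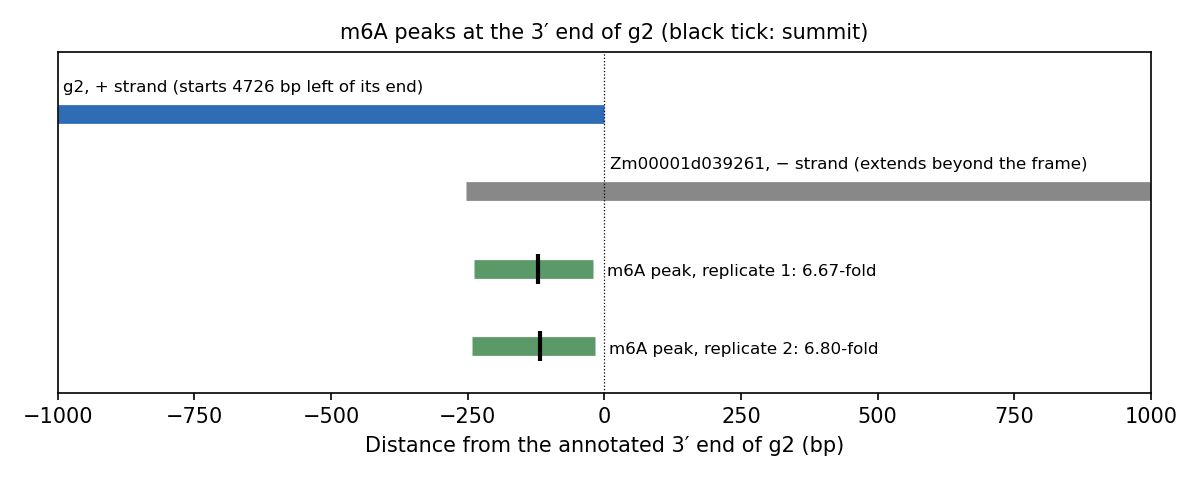
Map of the 3′ end of *g2* by distance from its annotated end (horizontal axis, bp), with *g2* (blue), the overlapping gene *Zm00001d039261* on the other strand (grey), and the m6A peaks of both replicates (green, with the summit as a black tick). The summits lay 122 and 117 bp before the end of *g2*, inside the 254 bp that the genes share.

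*glk1* and *oy1* had no m6A peak in either replicate, also when the spans were extended by 500 bp. The nearest peak to *glk1* was 193845 bp away in replicate 1 and 193636 bp in replicate 2. The next listed genes were 67724 and 59140 bp away from *glk1*. The nearest peak to *oy1* was 78119 and 78115 bp away. Of the genes like *glk1* 38.3% had no peak in either replicate, close to the 39.5% of all *Zm* entries whose mean mRNA FPKM reached 1. Of the genes like *oy1* only 13.8% (290 of 2097) had none, so that *oy1* was among the minority of its abundance and length. For *g2*, 16.2% of its like genes had none. A missing peak says that the enrichment did not pass the limit of *q*<0.01 in these libraries, not that the transcript has no m6A.

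Among the like genes of each of the 3 genes, those with a high-confidence peak had the higher median efficiency. The medians were 1.03 with and 0.567 without such a peak for *g2*, 1.62 and 0.738 for *glk1*, and 1.03 and 0.634 for *oy1*. These medians are over genes, which are not replicates. The mRNA libraries are both the divisor of the efficiency and the input for the peaks, so peak status and efficiency are not independent measures. A link between them was not tested. Set against like genes of the same high-confidence peak status, *g2* was above 66.1% of 1014 genes with a peak. *glk1* was above 80.7% of 845 genes without a high-confidence peak, with 80.8 and 79.3% in the replicates. Of those 845 genes, 672 had no peak in either replicate. *oy1*, below the centre of all its like genes, was above 62.5% of the 440 without a high-confidence peak, with 57.1 and 67.3% in the replicates. Of those 440 genes, 290 had no peak in either replicate.

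The genes most like each of the 3 were those with the smallest Euclidean distance over log2(FPKM + 0.1) in the 4 libraries. For *g2* these were *Zm00001d032155* on chromosome 1 (distance 0.06) and *Zm00001d021147* on chromosome 7 (0.10). For *glk1* they were *Zm00001d005495* on chromosome 2 (0.08) and *Zm00001d034627* on chromosome 1 (0.11), and for *oy1* *Zm00001d024301* on chromosome 10 (0.14) and *Zm00001d042346* on chromosome 3 (0.15). Of the matches of *g2*, *Zm00001d032155* had no high-confidence m6A peak and *Zm00001d021147* had 2. All 4 matches of *glk1* and *oy1* had at least 1, beside 51.8% of the genes like *glk1* and 79.0% of the genes like *oy1* in abundance and length, so nothing is read from this count. With 4 libraries of 2 kinds the number of genes closer than a gene's own replicates to each other was 10 for *g2* (distance between replicates 0.18), 0 for *glk1* (0.05), and 30 for *oy1* (0.26).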

How the data were processed

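The authors trimmed reads with Trimmomatic 0.35, mapped them to B73 AGPv4.38 with Hisat2 2.1.0, and estimated FPKM with StringTie, and the deposited FPKM were used unchanged. Reads of the hybrid were mapped to B73 alone, and a loss of Mo17 reads at the 3 genes was not tested. Peaks were called by the authors with MACS2 in each replicate against the input at *q*<0.01. The deposited fold enrichment of m6A-seq over input, −log10 *P*, and −log10 *q* are those given by MACS2. The deposited score, not used here, holds 10 times the −log10 *q* with its decimals dropped. Labels give the kind of library, and numbers in titles the replicate.

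Differences were tested with limma 3.58.1 in R 4.3.3 (lmFit, eBayes with trend), tested on simulated data; Xtail, named in the study's methods, needs counts. Python 3.11.15, numpy 2.4.6, pandas 2.3.3, scipy 1.17.1, and matplotlib 3.10.9 served for the rest. The files hold no counts, and at best 25.7 to 33.0% of 300 low values of short entries fell on whole steps (tolerance 0.05), so depth is unknown. The members and lists were chosen with earlier results of these data known. Named are the 3 genes and the 2 nearest genes of each. Lists of chlorophyll genes and leaf cell markers, planned by gene name, were not analysed here, since 0 of 43789 *Zm* identifiers matched the RefSeq gene table, so the tissue was not checked by markers. Alternatives covered the pseudocount, filter, scaling, trend, replicate block, left-out libraries, like-gene limits, and peak rules.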

Additional observations from a re-analysis of the deposited data

How the results depend on the processing

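The counts of m6A peaks in *g2*, *glk1*, and *oy1* kept their values in all 18 alternatives. The log2 difference of *g2* was 0.75 and called with each library centred on its median, and −0.14 without ENSRNA entries. That of *glk1* was −0.077 without ENSRNA entries, and lost its call at 0.56 with a pseudocount of 1, at 0.59 with no filter, without trend, and with the replicate block, and at 0.57 to 0.61 with a library left out. That of *oy1* was −1.02 and called without ENSRNA entries. The changes of sign follow from the change of scale, and without ENSRNA entries the intervals of *g2* and *glk1* held both signs.

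With a library left out, 4736 to 5568 entries were called in place of 8464, from fewer libraries, of which a lone one was assumed to vary like the other kind. The difference of *g2* minus *glk1* was then −0.16 to 0.038, that of *g2* minus *oy1* 0.81 to 0.96, and that of *glk1* minus *oy1* 0.83 to 1.06. The replicate block left 7886 calls. The labels do not tie equal replicate numbers to shared plants, and the deviations of equal numbers had a correlation of 0.016 across entries. Among like genes the share with a lower efficiency was 66.2% for *g2* and 69.2% for *glk1* with both limits at a factor of 3, and 60.6 and 69.1% with abundance alone. Depth is unknown, and 2 replicates limit every comparison.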
